A study of Mus musculus with 2 samples.

Results

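The microRNAs described here are the 3p arms of the mouse cluster that runs from miR-290 to miR-295, measured in exosomes released by pancreatic cells. They are 9 of the 1881 miRNAs on the array: mmu-miR-290a-3p, mmu-miR-290b-3p, mmu-miR-291a-3p, mmu-miR-291b-3p, mmu-miR-292a-3p, mmu-miR-292b-3p, mmu-miR-293-3p, mmu-miR-294-3p and mmu-miR-295-3p. The cluster was chosen from measured values of these same arrays, so its difference between the exosomes is a description, and no test of it was made. Exosomes are small membrane vesicles that carry RNA and protein between cells.

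KPC-exosomes came from a pancreatic cancer line of a tumour in KrasLSL-G12D/+, Trp53LSL-R172H/+, Pdx1-Cre mice, in which Cre switches both mutant alleles on in the pancreas. MPDC-exosomes came from a purchased line of pancreatic ductal epithelium, for which no genotype was given, and served as the control. The KPC line grew in RPMI-1640 with 20% fetal bovine serum and the MPDC line in DMEM with 10%, and exosomes of both were collected by ultracentrifugation from supernatants with exosome-free serum. RNA of each (0.5 µg) was labelled with Cy3 and hybridised to 1 array, so that a difference between the lines, between their media and between these 2 preparations cannot be told apart. The labels describe a labelling kit for amplified RNA, whereas the study's methods describe labelling of the RNA for a miRNA chip.

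The cluster is transcribed as a single precursor and is the dominant miRNA product of mouse embryonic stem cells and of early embryos. A miRNA recognises its target mRNAs mainly through its seed, the bases from position 2 to 8. Several 3p arms of the cluster share a seed core with the miR-302 family and act on inhibitors of the cell cycle, by which they sustain the rapid division of embryonic stem cells.

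The 9 hairpins lie within 2216 bases of chromosome 7, at chr7:3218626-3220841 (GRCm38.p6, RefSeq). The RefSeq gene of the long noncoding RNA D7Ertd143e, chr7:3218784-3221015, spans 7 of them, all but Mir290a and Mir290b, and the protein-coding gene Nlrp12, chr7:3218643-3249771, overlaps all 9. Mature sequences of 8 members were found in RefSeq. None was found for miR-292a-3p, the brightest member in MPDC-exosomes, so its seed group is not given. The 8 sequences are shown because these members fall into seed groups that can be set beside their differences, and capitals mark the seed. Without miR-292a-3p the seed groups are incomplete. The first 3 share 1 seed.
mmu-miR-291a-3p: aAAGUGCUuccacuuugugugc
mmu-miR-294-3p: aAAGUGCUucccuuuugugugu
mmu-miR-295-3p: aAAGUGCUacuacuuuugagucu
mmu-miR-290a-3p: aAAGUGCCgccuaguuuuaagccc
mmu-miR-291b-3p: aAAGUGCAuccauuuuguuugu
mmu-miR-293-3p: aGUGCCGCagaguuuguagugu
mmu-miR-290b-3p: aAGUGCCCccauaguuugagua
mmu-miR-292b-3p: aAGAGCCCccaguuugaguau

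The letters AAGUGC stood at bases 2 to 7 in 5 of these 8 sequences, against 8 (0.498%) of the 1608 array miRNAs with a RefSeq sequence. miR-291a-3p and miR-294-3p are identical over their first 11 bases, and each matches miR-295-3p over the first 8. miR-290b-3p and miR-292b-3p come from the opposite strand of the locus. miR-290b-3p, chr7:3218638-3218659, overlaps 21 bases of miR-290a-5p on the other strand, and miR-292b-3p, chr7:3219198-3219218, overlaps 19 bases of miR-292a-5p. These 2 antisense members share a run of 10 bases.

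Signals are sums over the probes of a miRNA whose signal exceeded 3 scanner errors, in scanner units, and the ± of a signal is the scanner's own error on 1 array and not a spread between samples. On both arrays together no spot of a miRNA probe was saturated. KPC-exosomes gave signal for 772 miRNAs and MPDC-exosomes for 1031, 726 were detected on both and 1077 on at least 1. Across those 726 the log2 difference (KPC-exosomes minus MPDC-exosomes) had a median of -1.37 before and 0.53 after quantile normalization, the setting that returns the deposited values, and the 4 spike-in controls differed by -0.31 to 0.38. Each member is therefore given on both scales.

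The 5 brightest miRNAs of the cluster stood far below the control. In MPDC-exosomes miR-292a-3p gave 135570 ± 9758 and in KPC-exosomes 180 ± 13.5, a log2 difference of -9.56 ± 0.15 before and -8.09 after normalization. Signals of miR-293-3p were 133993 ± 9702 and 210 ± 15.3, a difference of -9.32 ± 0.15 before and -7.79 after. The cancer line's exosomes thus gave less than 0.16% of the control signal for either miRNA, 0.133% for the first and 0.156% for the second. Fewer vesicles carrying a miRNA and less of it per vesicle cannot be told apart in such pooled RNA.

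The 3 members with the seed AAGUGCU, the ones best known as cell cycle regulators of embryonic stem cells, formed a close group, as did all 5 bright members. miR-294-3p gave 73780 ± 4455 in MPDC-exosomes and 82.4 ± 5.88 in KPC-exosomes, a log2 difference of -9.81 ± 0.13 before normalization and -7.89 after. For miR-295-3p the signals were 73449 ± 5325 and 85.9 ± 6.79, a difference of -9.74 ± 0.15 and -7.67. For miR-291a-3p they were 65544 ± 4295 and 87.5 ± 6.54, a difference of -9.55 ± 0.14 and -7.51.

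Between these 5 miRNAs, taken as the brightest in MPDC-exosomes, the difference ran from -9.81 to -9.32 (SD 0.19 over the 5 miRNAs). The ratio was 640 to 896 before normalization and 182 to 272 after. Scanner errors were 0.13 to 0.15 and do not measure a spread between miRNAs. Single probes of miR-291a-3p ranged from -10.79 to -9.16, and those of miR-293-3p from -9.39 to -9.28. miR-293-3p, which has another seed, was the least lowered of the 5 before normalization (-9.32). After normalization, at -7.79, it lay between miR-294-3p (-7.89) and miR-295-3p (-7.67). Of the 726 miRNAs on both arrays, 7 differed at least as far downwards as the highest of the 5, namely the 5 themselves, miR-291a-5p and, outside the cluster, miR-124-3p. In KPC-exosomes miR-291a-5p rests on 1 of its 4 probes, at 1.79 ± 0.47, near the lowest detected signal of that array (1.41). In MPDC-exosomes 3 of its probes were detected. miRNAs not detected in KPC-exosomes are left out of the count of 7. Of these, miR-148a-3p was at least 846-fold and miR-367-3p at least 677-fold lower before normalization. After normalization their bounds of -7.28 and -6.95 did not reach -7.51.

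**Figure D1:**
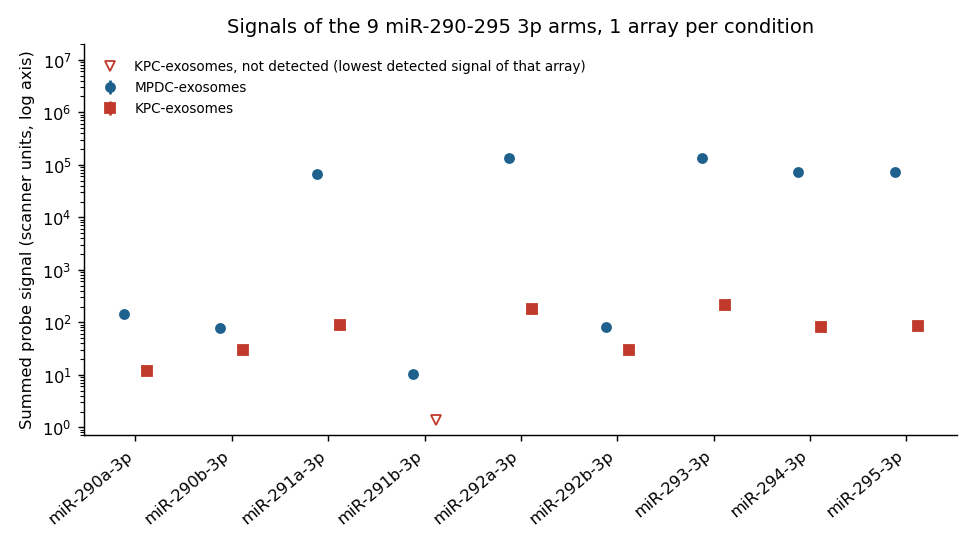
Summed probe signal (scanner units, log axis) of each of the 9 3p arms in MPDC-exosomes (circles) and KPC-exosomes (squares), 1 array each, with bars of 1 scanner error that are smaller than the symbols. The open triangle marks miR-291b-3p, not detected in KPC-exosomes, at the lowest detected signal of that array (1.41). The 5 bright miRNAs lie between 65544 and 135570 in MPDC-exosomes and between 82.4 and 210 in KPC-exosomes, and the other 4 lie below 144 on both.

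The other 4 members were dim on both arrays. miR-290a-3p, with the seed AAGUGCC, gave 144 ± 10.3 in MPDC-exosomes and 11.8 ± 1.11 in KPC-exosomes. Its log2 difference was -3.61 ± 0.17 before and -1.82 after normalization, 12.2-fold and 3.52-fold lower. miR-291b-3p was detected in MPDC-exosomes at 10.6 ± 1.02 and not in KPC-exosomes, where its 4 probes summed to 0.434. Against the lowest detected signal of the KPC-exosome array it was at least 7.51-fold lower before normalization. After normalization the detected signal (0.04 on the log2 scale) lay under the lowest detected signal of the other array (2.19), so that no bound could be given, and its call as lower rests on the floor of 0.1 set for undetected miRNAs.

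The antisense members did not share the large difference. miR-290b-3p gave 78.8 ± 5.77 in MPDC-exosomes and 29.97 ± 2.501 in KPC-exosomes, and miR-292b-3p gave 82.1 ± 5.997 and 30.01 ± 2.51. Their differences were -1.40 ± 0.16 and -1.45 ± 0.16 before normalization, within 0.08 of the median of all 726 miRNAs. After normalization they turned to 0.45 and 0.42, again close to the median of 0.53. So the direction of these 2 miRNAs depends on the scaling, and both stayed under 2-fold after normalization.

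By the filter of the study, which asks for detection on at least 1 array and a 2-fold difference, 7 of the 9 members were lower in KPC-exosomes after quantile normalization, as were 42.7% of all 1077 miRNAs. With undetected miRNAs at their bound the filter gave 6 members and 24.6% of all, and without normalization 9 members and 68.0% of all. No member was higher by 2-fold. The median difference was -7.59 over the 8 members with a value or a bound after normalization, beside 0.30 over the 905 of all miRNAs with one. Without normalization it was -9.32 over 9 members beside -1.60 over 1072 miRNAs. The members were chosen for this contrast, and these counts describe them only.

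**Figure D2:**
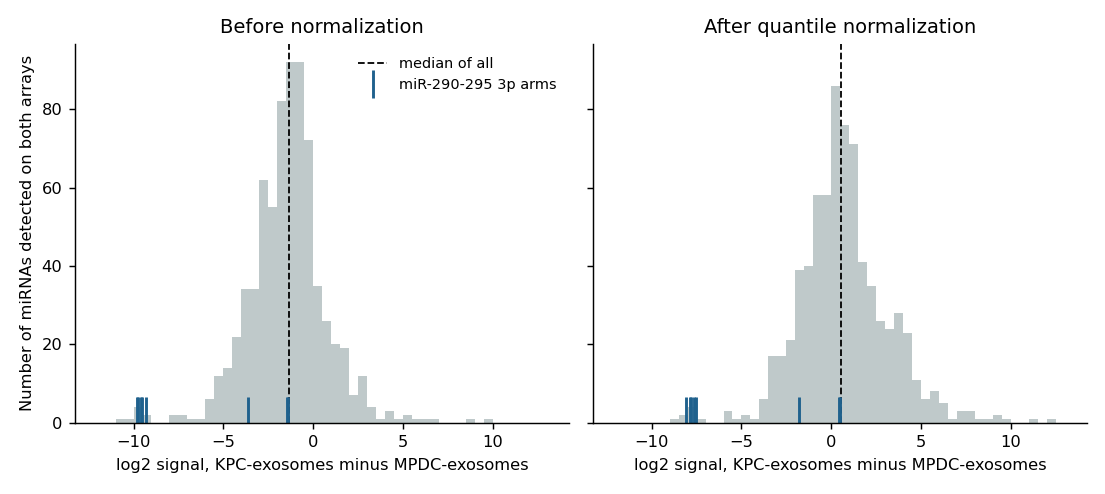
Histograms of the log2 difference (KPC-exosomes minus MPDC-exosomes) for the 726 miRNAs that both arrays detected, before (left) and after quantile normalization (right), in number of miRNAs. Blue ticks mark the 8 members detected on both arrays and the dashed line the median of all (-1.37 and 0.53): 5 ticks stand at the far left, miR-290a-3p between, and miR-290b-3p and miR-292b-3p at the median.

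Summed over the 9 members, the signal was 482652 in MPDC-exosomes and 717 in KPC-exosomes. This was 34.3% of the summed signal of all miRNAs on the MPDC-exosome array and 0.167% on the KPC-exosome array. Nearly all of it came from the 5 bright members, which made up 34.3% and 0.150%. Probes differ in brightness, so these are shares of signal and not of molecules.

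Each member is read by 2 to 4 probes, DNA strands that begin at the 3′ end of the miRNA and extend different distances towards its seed, each printed as 7 to 15 spots. The spots measure technical error only. Of the 24 probes, 23 had every spot dimmer in KPC-exosomes than the dimmest spot in MPDC-exosomes, as had 38.0% of all 4415 miRNA probes, before normalization. The exception was the shortest probe of miR-291b-3p, detected on neither array. The coefficient of variation between the spots of a detected member probe was 5.95% to 25.7% (median 8.72%) in KPC-exosomes and 1.87% to 11.0% (median 7.205%) in MPDC-exosomes.

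For miR-294-3p the 10 spots of the longest probe ran from 216 to 296 (median 284) in KPC-exosomes and from 142262 to 204359 (median 181380) in MPDC-exosomes. The spots of the longest miR-290a-3p probe, 7 in number, ran from 18.1 to 27.4 (median 18.9) and from 680 to 793 (median 768). For the longest miR-290b-3p probe 15 spots ran from 45.2 to 63.6 (median 55.6) and from 137 to 179 (median 153). The ranges of the 2 arrays stood apart in all 3 cases before normalization, by very unequal distances.

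Probes of 1 miRNA did not all give the same difference. The widest disagreement was that of miR-290a-3p, whose 4 probes are shown with the bases that lengthen them in capitals.
miR-290a-3p probe of 16 bases: gggcttaaaactaggc
miR-290a-3p probe of 17 bases: gggcttaaaactaggcG
miR-290a-3p probe of 18 bases: gggcttaaaactaggcGG
miR-290a-3p probe of 19 bases: gggcttaaaactaggcGGC

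The shortest pairs with none of the 7 seed bases and the longest with 3. In MPDC-exosomes their signals were 7.45, 8.35, 30.7 and 97.3, from the shortest to the longest, and in KPC-exosomes 3.37, 3.13, 2.54 and 2.73. The log2 difference was -1.14 ± 0.31 at the shortest, -1.42 ± 0.32 and -3.60 ± 0.32 between, and -5.16 ± 0.31 at the longest, a range of 4.02. Lengthening the probe thus went with 13.06 times the signal in MPDC-exosomes and 0.808 times in KPC-exosomes, and the summed value of miR-290a-3p rests mostly on its 2 longest probes in the control.

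In miR-291a-3p, miR-294-3p and miR-295-3p the order was the opposite. The difference of miR-291a-3p was -10.79 ± 0.33 with its probe of 18 bases, -10.01 ± 0.21 with 19 and -9.16 ± 0.20 with 20. miR-294-3p gave -10.94 ± 0.23, -10.17 ± 0.21 and -9.30 ± 0.20 with its probes of 19, 20 and 21 bases. Each longer probe of these 2 miRNAs reaches 1 base further into the seed they share. From the shortest to the longest probe the difference moved by 1.63 ± 0.39 and 1.64 ± 0.31, and by 0.77 ± 0.30 for miR-295-3p. For miR-293-3p (0.11 ± 0.29) and miR-292a-3p (0.50 ± 0.29) it moved by less than 2 scanner errors. In the antisense members the probes lay within 0.02 ± 0.32 of each other for miR-290b-3p and within 0.00067 ± 0.32 for miR-292b-3p.

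miR-291b-3p was detected in MPDC-exosomes by its probes of 21 bases (3.61 ± 0.59) and 22 bases (6.95 ± 0.84) and not by those of 19 and 20 bases. The limit of 3 errors fell between the probe of 20 bases, at 2.11 errors, and that of 21 bases, at 6.13. In KPC-exosomes none of its 4 probes exceeded 0.501 errors, while the weakest of the 20 detected member probes there, the shortest of miR-291a-3p, stood at 4.90 errors.

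**Figure D3:**
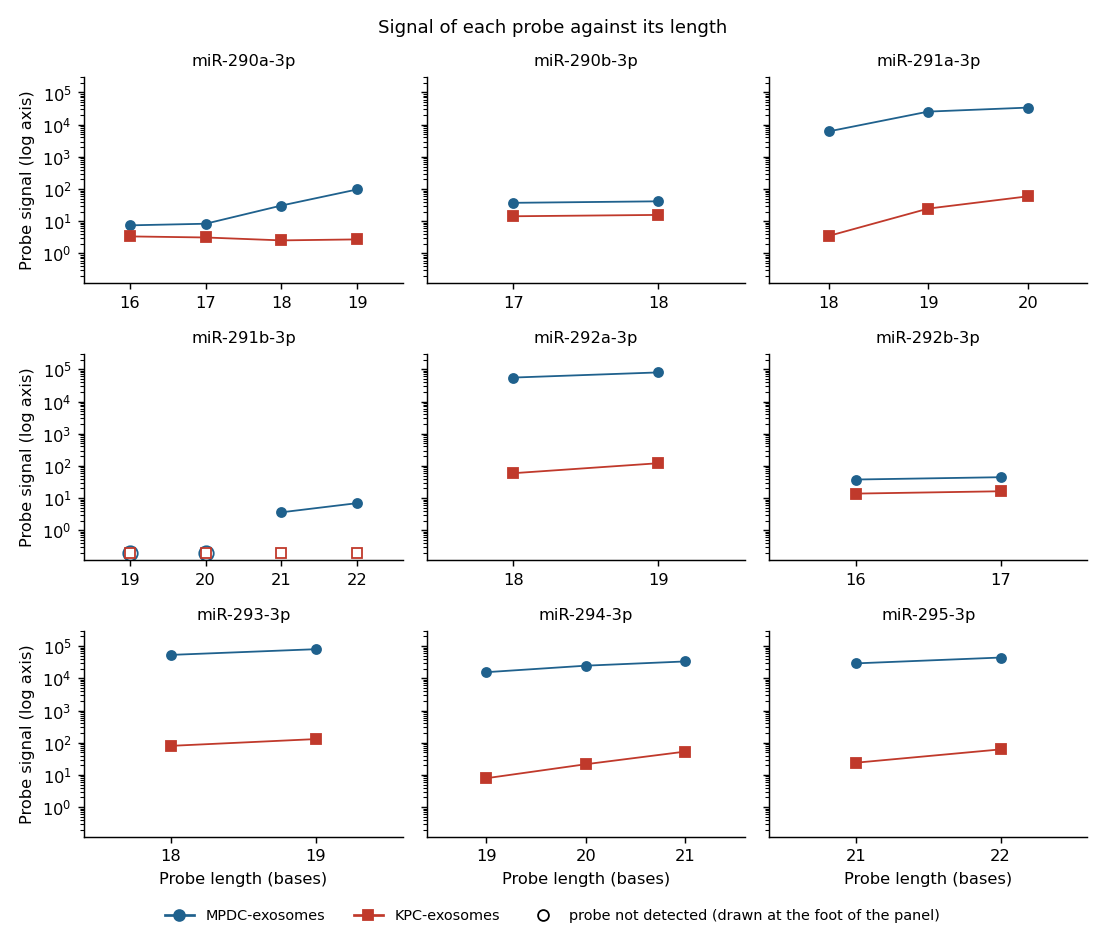
Signal of each probe (scanner units, log axis, bars of 1 scanner error smaller than most symbols) against its length in bases, for the 9 members, in MPDC-exosomes (blue circles) and KPC-exosomes (red squares). Open symbols at the foot of a panel are probes that were not detected and carry no value. The gap between the arrays widens with probe length for miR-290a-3p (from -1.14 to -5.16 on the log2 scale) and narrows for miR-291a-3p and miR-294-3p.

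The 5p arms of the 9 hairpins, which are cut from the same precursors, gave 6 miRNAs at least 2-fold lower, 2 at least 2-fold higher and 1 between after normalization, with a median of -3.37 over the 9 (-5.08 without normalization). Over all 1077 miRNAs 42.7% were at least 2-fold lower by the same count, and the median was 0.30 (-1.60 without normalization). Both arms were detected on both arrays for 4 hairpins. In 2 of them the 3p arm differed further than the 5p arm by more than 2 scanner errors of the contrast between them. The miR-292a-5p difference was -5.08 before normalization against -9.56 for its 3p arm, and that of miR-295-5p was -4.45 against -9.74. In the miR-290a hairpin the order of the summed values was turned, -5.18 for the 5p and -3.61 for the 3p arm. The longest probe of miR-290a-3p alone gave -5.16 ± 0.31, close to the 5p arm. For miR-291a the arms (-10.26 and -9.55) differed by 0.71 ± 0.42, within 2 scanner errors. Here the 5p arm was read in KPC-exosomes by 1 of 4 probes, at 1.79 ± 0.47, near the detection limit.

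In the remaining hairpins 1 arm was detected on 1 array only. miR-293-5p (160 ± 11.6) and miR-294-5p (732 ± 47.1) were detected in MPDC-exosomes only and were at least 114-fold and 296-fold lower in KPC-exosomes before normalization, the same direction as their 3p arms. miR-290b-5p (2760 ± 196) and miR-292b-5p (99.1 ± 7.72), the partners of the antisense members, were detected in KPC-exosomes only, at least 565-fold and 32.2-fold above their own undetected probe sums in MPDC-exosomes (4.88 and 3.07). miR-291b-5p was detected on both, with a difference of -1.39 before and 0.34 after normalization. Both arms of the miR-290a, miR-291a, miR-292a, miR-293, miR-294 and miR-295 hairpins were thus lower in KPC-exosomes on either scale, while the antisense hairpins held 5p arms with the reverse direction.

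**Figure D4:**
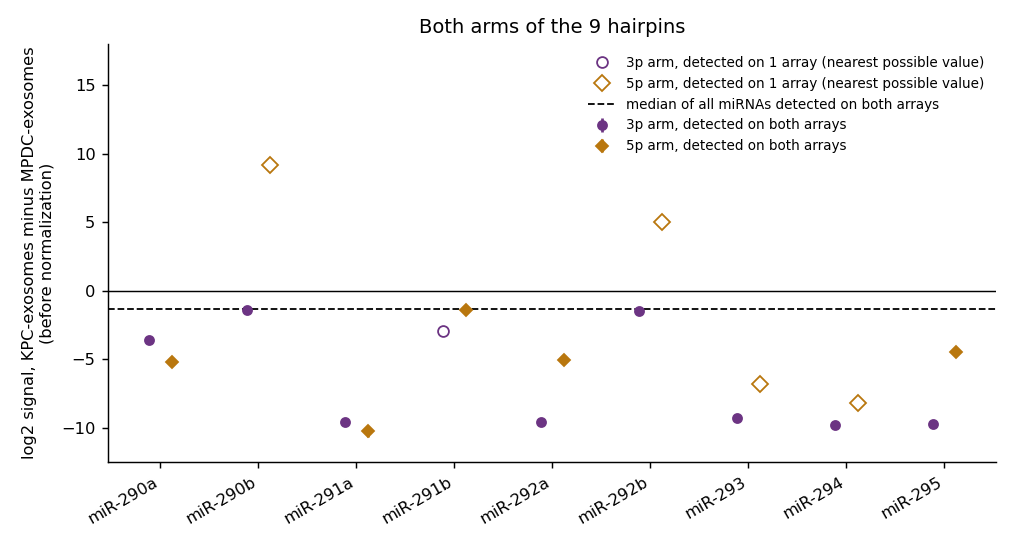
Log2 difference before normalization (KPC-exosomes minus MPDC-exosomes) of the 3p arm (purple circles) and the 5p arm (orange diamonds) of each hairpin, with bars of 1 scanner error, most smaller than the symbols. Open symbols are arms detected on 1 array, drawn at the bound nearest to 0, and the dashed line is the median over the 726 miRNAs that both arrays detected (-1.37). Most arms lie below this line, and miR-290b-5p and miR-292b-5p lie above 0.

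Among the 1608 array miRNAs with a RefSeq sequence, 3 outside the cluster carried the seed of a member. The rest of the 1881 array miRNAs could not be searched, so this list may be incomplete. miR-302b-3p and miR-302d-3p, with the seed AAGUGCU, were detected in MPDC-exosomes only, at 117 ± 9.09 and 103 ± 8.23, at least 83.2-fold and 73.4-fold lower in KPC-exosomes before normalization. miR-350-5p, with the seed AAGUGCA of miR-291b-3p, was detected on neither array. The miR-302 to miR-367 cluster, the second large miRNA cluster of pluripotent cells, had 6 of its 9 arms in MPDC-exosomes and none in KPC-exosomes. Of all 1881 miRNAs, 1031 were detected in MPDC-exosomes and 772 in KPC-exosomes. The brightest arm of the miR-302 to miR-367 cluster, miR-367-3p, gave 953 ± 68.5 in MPDC-exosomes, and miR-302a-3p gave 463 ± 41.2.

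Among miRNAs detected on both arrays, the 5 outside the cluster whose normalized difference was nearest to the members' median of -7.59 were, over these 2 arrays, miR-669n (-7.31), miR-124-3p (-8.75), miR-200c-3p (-5.99), miR-196a-5p (-5.95) and miR-669f-3p (-5.72). The nearest lay 0.28 from that median and the fifth 1.87. In KPC-exosomes their signals were 3.01 ± 0.98, 4.40 ± 1.03, 4.58 ± 1.04, 4.92 ± 0.84 and 12.8 ± 1.61, and in MPDC-exosomes 1745 ± 129, 7005 ± 631, 991 ± 83.4, 1036 ± 57.1 and 1938 ± 154.

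Markers of other cell types were read beside these values. Their counts stand beside 772 of all 1881 miRNAs detected in KPC-exosomes and 1031 in MPDC-exosomes. Of 7 epithelial miRNAs, 5 were detected in KPC-exosomes and 7 in MPDC-exosomes, with a summed signal of 98.8 and 1781. Of 5 pancreas miRNAs each array detected 1, miR-217-5p (60.9 ± 3.42) in KPC-exosomes and miR-148a-3p (1190 ± 88.5) in MPDC-exosomes. miR-216a-5p, miR-216b-5p and miR-375-3p were detected on neither. Mesenchymal miRNAs were detected in MPDC-exosomes only (4 of 4, summed signal 206). Of 4 blood cell miRNAs, 3 were detected on both (summed signals 236 and 317) and miR-144-3p on neither. Their differences ran in opposite directions, with 2.69 before normalization for miR-142a-3p, -2.52 for miR-223-3p and -2.66 for miR-451a. The labels give the control as ductal epithelium, and its exosomes held both pluripotency clusters. The part of these other cell types in the difference of the cluster was not tested.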

How the data were processed

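miRNAs of KPC-exosomes and MPDC-exosomes were measured on 1-colour Agilent arrays of the same slide, 1 for each line. As scanner output the authors deposited background-subtracted signal intensities and errors on a linear scale per probe. The header names Feature Extraction 10.7.1.1 and the submitters' processing notes 9.1. A table of log2 values for each miRNA, made by the authors in GeneSpring, was deposited too. Total signals of probes above 3 errors were summed per miRNA, undetected miRNAs were set to 0.1, and log2 sums were quantile normalized with 21 control features, which returned the deposited values within 1.11e-05. Quantile normalization removes a difference in total miRNA. No test was possible with 1 array each, and the number of arrays limits the precision. A bound was set against the lowest detected signal of the array, or the sum over all the probes of that miRNA if higher.

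The members and lists were chosen with earlier results of these data known. Named were the members, their 5p arms, miRNAs with a member's seed, the 5 nearest in difference, and examples of the miR-302 and miR-367 list and the cell type lists. Steps were tested on simulated data. Python 3.11.15 with numpy 2.4.6 and pandas 2.3.3, R 4.3.3 with limma 3.58.1 (normexp alternative) and matplotlib 3.10.9 were used. Sequences are from RefSeq (GRCm38.p6). The alternatives are given in the closing section.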

Additional observations from a re-analysis of the deposited data

How the results depend on the processing

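Of the alternatives, the deposited log2 values repeat the main setting, and the filter of detection on both arrays uses the same normalized values. All 13 alternatives kept the members' median below 0. It moved by more than the median scanner error of 0.15 from -7.59 in 7: to -9.32 without normalization, -9.35 with scaling by the spike-in controls, -7.78 with 75th-percentile scaling, with or without a floor at the lowest detected signal, -7.85 with processed signals, -7.35 with the brightest probe, and -7.80 with the scanner software's totals per miRNA. The main median and that with the brightest probe cover 8 members. The other medians listed cover 9, with miR-291b-3p added. With the scanner software's totals this added value comes from a total that includes signal of other miRNAs, as described below. Relative to the median of all miRNAs, the members' median ran from -8.14, with those totals, to -7.12. The number of members called lower was 5 to 9 over 15 alternatives. It was 5 with normexp background correction, where miR-290a-3p (-0.72) and miR-291b-3p (-0.20) were under 2-fold, 6 with a threshold of 4-fold or detection on both arrays, and 9 without normalization or with spike-in scaling. Of all 1077 miRNAs, 460 were called lower, and 156 with normexp, 329 with a threshold of 4-fold, 732 without normalization and 740 with spike-in scaling, while detection on both arrays gave 155 of 726. The causes were not tested. miR-290b-3p and miR-292b-3p were higher in KPC-exosomes in 10 of 12 alternatives and lower in 2. The 10 include the deposited values, which repeat the main setting. The 5 bright members lay between -9.83 and -7.33 in every alternative, and miR-291b-3p between -17.39 and -0.20. No paired analysis was possible because each condition has 1 array, and no array could be left out for the same reason. miR-291b-3p, near the detection limit, changed from -2.65 to -1.38 with a floor of 1 in place of 0.1.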

Other observations

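The letters AAGUGC stand 1 base further along, at bases 3 to 8, in 7 array miRNAs with a RefSeq sequence, among them the miR-17 family, which promotes proliferation in many tissues. This group was picked after values had been seen. In it 5 were detected on both arrays, and all 5 were lower in KPC-exosomes before normalization, from -5.60 for miR-20b-5p to -2.17 for miR-106b-5p, with a median of -3.65 beside -9.43 for the 8 members detected on both and -1.37 for all 726 miRNAs. Before normalization 68.0% of the 1077 miRNAs on at least 1 array were at least 2-fold lower. After normalization the range was -3.25 to -0.16, and 3 of the 5 were at least 2-fold lower, beside 21.3% of the 726. miR-17-5p gave 74.8 ± 6.14 in KPC-exosomes and 941 ± 75.8 in MPDC-exosomes, and miR-20a-5p gave 5083 ± 391 and 47349 ± 3573.

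The scanner software's own total for a miRNA was not always the sum of its probes. For miR-291b-3p in MPDC-exosomes the total was 67752 while its detected probes summed to 10.6, and the excess of 67742 equals the total written for miR-291a-5p, which in turn exceeds the probes of miR-291a-5p by 65544, the signal of miR-291a-3p. On the MPDC-exosome array the totals of 182 miRNAs differed from their probe sums by more than 1%. Among the 9 members this held for miR-291b-3p in MPDC-exosomes alone, and its difference of -17.39 with these totals comes from that excess.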
